A study of Mus musculus with 30 samples.

Results

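Embryoid bodies (EBs) at day 2 were compared with embryonic stem (ES) cells at day 0 across all genes, in 4 RNA-seq libraries of the 30 samples in the series. The 2 day 2 libraries came from EBs, the aggregates that ES cells form in suspension as they differentiate. The 2 day 0 libraries came from undifferentiated ES cells kept on gelatin in serum medium with LIF, the cytokine that holds mouse ES cells in self-renewal. Both groups were E14Tg2a.IV, a wild-type mouse ES cell line of 129/Ola background, and no treatment of these libraries is given in the labels. The series is about p53 and its part in how Wnt and TGF-β act on mesoderm and endoderm genes, and its E14Tg2a.IV time course has 10 libraries, 2 on each day from 0 to 4. The step from day 0 to day 2 covers the loss of the naive state, before most genes of the primitive streak rise. EB formation followed the cell supplier's protocol, so 2 days of time and the change of culture cannot be told apart.

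Mouse ES cells in LIF correspond to the naive epiblast of the blastocyst, where a network of transcription factors that includes Esrrb, Klf4, Tfcp2l1 and Zfp42 acts beside the core factors Pou5f1 (Oct4), Sox2 and Nanog. When LIF is withdrawn and FGF signalling goes on, the naive factors are lost and Otx2, Pou3f1 (Oct6), Fgf5 and the de novo DNA methyltransferases come on, which marks the formative epiblast of the early post-implantation embryo. Pou5f1 stays on through this change, and only afterwards do Wnt and Nodal signals induce the primitive streak, from which mesoderm and endoderm arise.

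The 4 libraries held 26966972 to 33522251 reads in genes. Values below are normalised read counts, the read count of a gene divided by 1 factor per library, and are not corrected for gene length. Each is given for replicate 1 and then replicate 2. A log2 fold change is day 2 over day 0 on the scale of log2(value + 1), with its standard error (SE). Its p-value comes from limma over all 10 libraries and is adjusted by the Benjamini-Hochberg method over 15841 tested genes. A gene is called when the adjusted p is under 0.05. Nothing in the labels tells if both libraries of a day came from separate cultures, so these p-values measure the spread between libraries only. In bulk RNA, fewer cells of a type and less RNA per cell cannot be told apart.

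The day 0 libraries stood apart from each other. Across 9750 genes of at least 10 CPM (reads per 1e+06 reads in genes), 37 (0.379%) differed by more than 2-fold between the 2 day 2 libraries, and 1448 (14.9%) between the 2 day 0 libraries. Spearman's correlation across the 15841 tested genes was 0.995 between the day 2 libraries and 0.962 between the day 0 libraries. Day 0 replicate 1 was the higher library in Fos (5859.9, against 144 in replicate 2), an immediate early gene, and in Cdkn1a (9923, against 1272), the p53 target that encodes p21. Replicate 2 was the higher in Inhbb (2170.3, against 169 in replicate 1), an activin subunit gene. The counts below were therefore also taken with each of the 4 libraries left out. The day then left with 1 library adds nothing to the spread, which comes from the other days. Without a day 0 library the spread lacks the day whose libraries differed most. Without a day 2 library it lacks the day whose libraries differed least. Between the libraries of days 1 to 4, 0.379% to 3.66% of the 9750 genes differed by more than 2-fold. Counts from such fits shift with the spread as well as with the fold changes.

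Between day 2 and day 0, 1602 genes were higher at day 2 (10.1% of those tested) and 1302 were lower (8.22%). By more than 2-fold, 1335 (8.43%) were higher and 916 (5.78%) were lower. The median log2 fold change over all tested genes was 0. The shares of 10.1% and 8.22% are the background for each count of list members below. Without day 0 replicate 1 the counts were 1983 higher and 1484 lower, and without day 0 replicate 2 they were 3189 and 3093. Without day 2 replicate 1 they were 490 and 403, and without day 2 replicate 2 they were 353 and 328. With the spread taken from days 0 and 2 alone, 414 were higher and 394 lower. Every one of the 2904 called genes had both day 2 libraries on 1 side of both day 0 libraries. The call rests on the same values and favours such genes, so this adds no support to the calls.

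**Figure D1:**
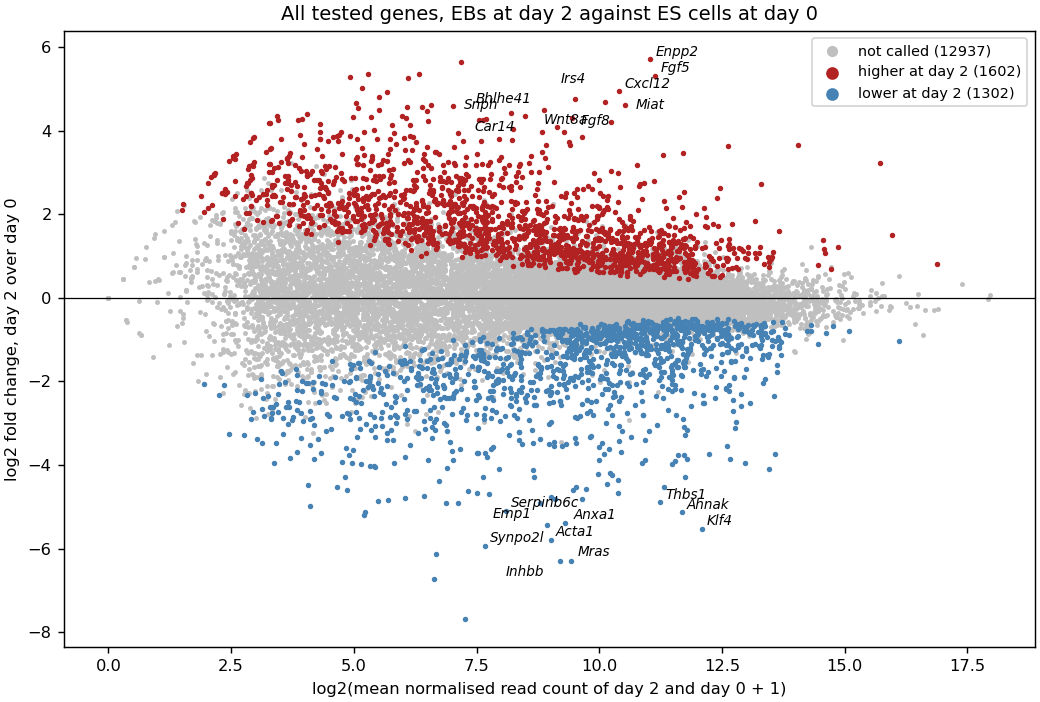
Log2 fold change of day 2 over day 0 (vertical axis) against the log2 mean normalised read count of the 4 libraries (horizontal axis) for the 15841 tested genes. Red points are the 1602 genes called higher at day 2, blue points the 1302 called lower and grey points the rest. The 10 largest rises and falls among called genes of at least 10 CPM are named, leaving out Gm, Rik and LOC symbols.

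The largest changes were ranked among called genes of at least 10 CPM in the higher group, leaving out Gm, Rik and LOC symbols. The 10 largest rises were those of Enpp2, Fgf5, Cxcl12, Irs4, Wnt8a, Miat, Bhlhe41, Snph, Car14 and Fgf8, with log2 fold changes of 4.32 to 5.71. Enpp2, which encodes autotaxin, the secreted enzyme that makes lysophosphatidic acid, had 3757 and 4364 in the day 2 EBs, against 25.2 and 226 in the day 0 ES cells (log2 fold change 5.71 ± 0.76, adjusted p = 0.00172). Cxcl12, the chemokine ligand of CXCR4, had 2286 and 2968 at day 2, against 88.9 and 78.4 at day 0 (log2 fold change 4.95 ± 0.40, adjusted p = 0.000205). For both genes each day 2 library was far above each day 0 library, and the 2 day 0 values of Enpp2 were themselves unlike. Bhlhe41, a bHLH repressor of the circadian clock, had 736 and 1055, against 70.2 and 20.2 (log2 fold change 4.51 ± 0.75). Irs4, an adaptor of insulin receptor signalling, had 1338 and 1449, against 67.0 and 38.0 (log2 fold change 4.76 ± 0.44). Fgf8 was the 1 gene of these 10 whose call was lost, both with 1 day 2 library left out and with days 0 and 2 alone.

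Under the same limits, the 10 largest falls were those of Inhbb, Mras, Synpo2l, Acta1, Klf4, Emp1, Anxa1, Ahnak, Serpinb6c and Thbs1, with log2 fold changes of -6.31 to -4.89. Mras, a Ras-family GTPase, had 16.6 and 14.2 at day 2, against 967 and 1735 at day 0 (log2 fold change -6.31 ± 0.48, adjusted p = 0.000196). Inhbb had 9.79 and 4.44, against 169 and 2170.3 (log2 fold change -6.31 ± 1.02, adjusted p = 0.00342). The 2 day 0 libraries of Inhbb differed widely, yet both lay well above the day 2 libraries. The naive factor Klf4 and Synpo2l, Acta1, Anxa1, Ahnak and Thbs1 are described further on. All 10 calls held under each of the 18 alternative analyses tried.

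Naive transcription factors were almost all lower at day 2. Of 13 tested, 12 were called, all of them lower, against 8.22% of all tested genes called lower, and their median log2 fold change was -3.68. Klf4 had 193 and 169.8 in the day 2 EBs, against 9848 and 7139 in the day 0 ES cells (log2 fold change -5.53 ± 0.44, adjusted p = 0.000205). That log2 fold change equals 46.1-fold higher in ES cells. Zfp42 (Rex1), the usual reporter gene of the naive state, had 1496 and 1038, against 21590.2 and 20872 (log2 fold change -4.09 ± 0.41, adjusted p = 0.000533). Both fell in both day 2 libraries to a small part of either day 0 value. Prdm14, which restrains FGF signalling and DNA methylation in naive cells, had 56.8 and 29.3, against 559.8 and 955 (log2 fold change -4.13 ± 0.54, adjusted p = 0.0016). Tfcp2l1, a direct target of LIF and Stat3, had 796 and 884, against 13529.7 and 10782 (log2 fold change -3.85 ± 0.21, adjusted p = 9.79e-05). Esrrb, an orphan nuclear receptor, had 1804 and 1600.0, against 27007 and 18763 (log2 fold change -3.73 ± 0.31, adjusted p = 0.000205). The SEs of Tfcp2l1 and Esrrb were small beside the size of their falls.

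Nr0b1 (Dax1), an orphan nuclear receptor that binds Oct4, had 529 and 356 at day 2, against 8496 and 4722 at day 0 (log2 fold change -3.86 ± 0.46, adjusted p = 0.00109). Tbx3, a T-box factor, had 431 and 318, against 5429.6 and 2107 (log2 fold change -3.19 ± 0.47, adjusted p = 0.00247). Klf2 fell less, with 2291 and 2609, against 16747 and 8589 (log2 fold change -2.29 ± 0.34, adjusted p = 0.00242). In Tbx3 and Klf2 day 0 replicate 1 was well above replicate 2, and both stayed above day 2. The smallest called falls of the list were those of Mybl2 (-1.33 ± 0.21) and Sox15 (-1.38 ± 0.31). Gbx2 was the member not called, with 311 and 339 at day 2, against 596 and 2887 at day 0 (log2 fold change -2.01 ± 0.69, adjusted p = 0.0684), and its 2 day 0 values were far apart. Of the 12 calls, 11 held under every alternative, and that of Sox15 did not. Without day 0 replicate 1 all 13 were called lower, and without day 0 replicate 2 the count was 12.

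Other markers of naive cells followed. Of 18 tested, 14 were called, all of them lower, and the median was -2.37. Tcl1, a co-activator of the kinase Akt, had 118 and 73.8 at day 2, against 3474 and 1663 at day 0 (log2 fold change -4.67 ± 0.43, adjusted p = 0.00035). Jam2, a junctional adhesion molecule, had 274 and 167, against 4779.9 and 5060.0 (log2 fold change -4.52 ± 0.37, adjusted p = 0.000205). Fbxo15, an F-box gene used as a reporter in reprogramming, had 1064 and 787, against 20514 and 9645 (log2 fold change -3.94 ± 0.38, adjusted p = 0.000414). No day 2 library of these genes came near a day 0 library. Of the 14 calls, 8 held under every alternative; with days 0 and 2 alone 9 were left, and with 1 library left out the count was 8 to 16.

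The core pluripotency genes had a median log2 fold change of -0.16, beside 0 over all tested genes. Of 13 tested, 3 were called, all lower, against 8.22% of all tested genes called lower. Pou5f1 had 41155 and 37910.0 in the day 2 EBs, against 42644 and 45724 in the day 0 ES cells (log2 fold change -0.16 ± 0.19, adjusted p = 0.594), so its values lay close together, with the day 2 libraries slightly the lower. Nanog had 333 and 379, against 1723 and 1313 (log2 fold change -2.08 ± 0.27, adjusted p = 0.00157). Gdf3, a TGF-β family ligand, had 1181 and 1148, against 4898 and 3785 (log2 fold change -1.89 ± 0.26, adjusted p = 0.00201). Nanog and Gdf3 were clearly separated between the days, and their calls held under every alternative. Sox2 had 9369 and 8120.0, against 15581 and 17788 (log2 fold change -0.93 ± 0.22, adjusted p = 0.0191), and this call was lost without either day 2 library and with days 0 and 2 alone. Without day 0 replicate 1, 5 members were lower, and without day 0 replicate 2, 2 were higher and 3 lower.

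**Figure D2:**
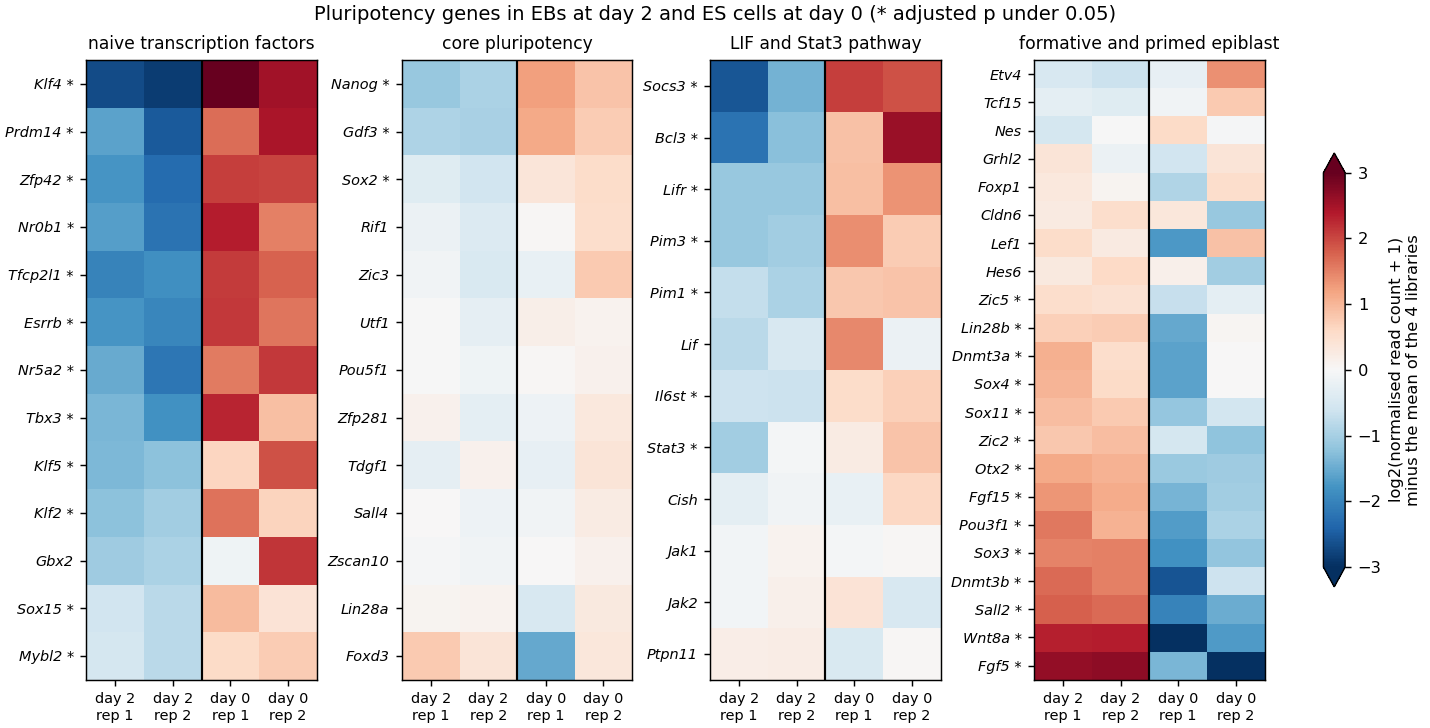
Each cell is log2(normalised read count + 1) of a gene in 1 library minus the mean of the 4 libraries, with the 2 day 2 libraries left of the 2 day 0 libraries and genes ordered from the largest fall to the largest rise in each of 4 lists; an asterisk marks a call. The naive factors, from Klf4 down to Mybl2, are blue at day 2 and red at day 0, except that Gbx2 is near white in day 0 replicate 1. Fgf5, Wnt8a and Sall2 show the reverse, and Pou5f1 is near white in all 4 libraries.

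The LIF pathway was lower at several of its steps. LIF signals through the receptor Lifr and its partner Il6st (gp130) to the kinase Jak1 and the transcription factor Stat3, which induces its own inhibitor Socs3. Of 12 tested genes, 7 were called, all lower, with a median of -1.27. Among the receptors, Lifr had 627 and 626 in the day 2 EBs, against 2585 and 3507 in the day 0 ES cells (log2 fold change -2.26 ± 0.20, adjusted p = 0.000349). Il6st, chosen after its values were seen, had 1611 and 1588, against 3600.0 and 4084 (log2 fold change -1.26 ± 0.19, adjusted p = 0.00255). Both receptor genes were lower in both day 2 libraries, while Jak1 had 2232 and 2545 at day 2, against 2291 and 2443 at day 0, a range in which the groups overlapped. Among the targets, Socs3 had 225 and 501 at day 2, against 5619.5 and 5026 at day 0 (log2 fold change -3.98 ± 0.36, adjusted p = 0.00035). Pim1, a serine/threonine kinase induced by Stat3, had 1796 and 1532, against 5144 and 5326 (log2 fold change -1.66 ± 0.22, adjusted p = 0.00177). The 2 day 2 values of Socs3 differed by more than 2-fold and both were far below day 0. The calls of Stat3 and Bcl3 were lost under at least 1 alternative and the other 5 held under every one.

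The promoter of Socs3 is shown because that gene had the largest fall of the list. It is 300 bases from 250 before to 50 after the start site, chr11:117969317-117969616 on the minus strand (RefSeq, GRCm38.p6), with the STAT motif TTCNNNGAA, which reads the same on both strands, in capitals.
Socs3: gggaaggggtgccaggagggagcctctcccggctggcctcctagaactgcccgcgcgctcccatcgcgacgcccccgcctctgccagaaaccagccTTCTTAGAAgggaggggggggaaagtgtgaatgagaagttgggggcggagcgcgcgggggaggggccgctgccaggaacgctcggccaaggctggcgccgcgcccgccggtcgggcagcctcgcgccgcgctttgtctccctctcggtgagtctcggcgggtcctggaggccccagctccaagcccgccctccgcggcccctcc
The 1 match ends 145 bases before the start site. All 12 genes of the list had a promoter in the table, 14 promoters in all, and 2 of the 14 (14.3%) held the motif, those of Socs3 and Cish, while 8.3% of all 32851 promoters of this length held it. A match of these letters is a description of the sequence and no measure of binding.

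Genes of the formative and primed epiblast were higher at day 2. Of 22 tested, 14 were called, all of them higher, against 10.1% of all tested genes called higher, and their median log2 fold change was 1.59. Fgf5, the FGF ligand that marks post-implantation epiblast, had 4294 and 4395 in the day 2 EBs, against 265 and 43.9 in the day 0 ES cells (log2 fold change 5.31 ± 0.60, adjusted p = 0.000862). Wnt8a, a Wnt ligand of the posterior epiblast, had 2115 and 2158, against 51.6 and 129 (log2 fold change 4.69 ± 0.39, adjusted p = 0.000226). The day 2 libraries of both genes nearly coincided, whereas day 0 replicate 1 was the higher of its pair for Fgf5 and the lower for Wnt8a. Sall2, a zinc finger factor, had 6348 and 5932, against 457 and 659 (log2 fold change 3.48 ± 0.26, adjusted p = 0.000196). Otx2, the homeobox factor that redirects Oct4 to formative enhancers, had 5574 and 5213, against 1179.9 and 1216 (log2 fold change 2.17 ± 0.17, adjusted p = 0.000196). Pou3f1 had 11463 and 7852, against 1192 and 1989.8 (log2 fold change 2.62 ± 0.30, adjusted p = 0.000925). In each of these 3 genes the lower day 2 library was several times the higher day 0 library.

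The SoxB1 factor Sox3, outside the naming rule and chosen after its values were seen, had 1669.7 and 1686 at day 2, against 169 and 259 at day 0 (log2 fold change 3.00 ± 0.28, adjusted p = 0.000367). Lef1, a nuclear partner of β-catenin, was not called, with 1808 and 1485 at day 2, against 369 and 2265 at day 0 (log2 fold change 0.84 ± 0.61, adjusted p = 0.36). Its day 2 values lay between the 2 day 0 values, so its direction rested on the library left out. The log2 fold change was 2.15 without day 0 replicate 2 and -0.47 without day 0 replicate 1. Of the 14 calls of the list, 9 held under every alternative. The count was 14 without day 0 replicate 1, when 2 were also lower, 16 without replicate 2, 10 without either day 2 library, and 9 with days 0 and 2 alone.

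In the list of DNA methylation enzymes and related factors, 2 of 9 tested genes were higher and 2 lower. Dnmt3b, a de novo methyltransferase, had 101150.0 and 88494 at day 2, against 5128 and 19986 at day 0 (log2 fold change 3.22 ± 0.48, adjusted p = 0.00251). Dnmt3a, the other de novo enzyme, had 22298 and 15379.5, against 3516 and 10729 (log2 fold change 1.59 ± 0.41, adjusted p = 0.0239). For both genes day 0 replicate 2 was more than 2-fold above replicate 1 and still below day 2. The call of Dnmt3b was lost with days 0 and 2 alone, and that of Dnmt3a there and without either day 2 library. Dnmt3l, their catalytically inactive cofactor, had 7266 and 3705 at day 2, against 5438 and 17644 at day 0 and was not called by limma (adjusted p = 0.265). Without day 0 replicate 1 the log2 fold change of Dnmt3l was -1.77. Zfp57, which protects methylation at imprinted loci, fell to 1843 and 1070.2, against 10019.7 and 14702 at day 0 (log2 fold change -3.11 ± 0.37, adjusted p = 0.00107). Of the enzymes that oxidise methylcytosine, Tet2 had 1063 and 1304, against 1989.9 and 5747 (log2 fold change -1.52 ± 0.40, adjusted p = 0.0272), and Tet1 was not called by limma (log2 fold change -1.27 ± 0.43, adjusted p = 0.0686). Tet1 was called lower by edgeR (-1.48, adjusted p = 0.0417) and by DESeq2 (-1.49, adjusted p = 0.00487). By limma without day 0 replicate 1 its log2 fold change was -2.13. The fall of Tet2 was lost without either day 2 library and with days 0 and 2 alone. The list had 4 falls without day 0 replicate 1, 3 rises without day 0 replicate 2, and 1 of each without either day 2 library.

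In the FGF and ERK list, 5 of 20 tested genes were higher and 3 lower, against 10.1% and 8.22% of all tested genes, with a median of -0.25. The rises included the ligands Fgf5, Fgf8 and Fgf15. Fgf15 had 2085 and 1819.5 at day 2, against 318 and 405 at day 0 (log2 fold change 2.44 ± 0.30, adjusted p = 0.00122). Fgf8 had 1149 and 1321, against 295 and 11.9 (log2 fold change 4.32 ± 1.03, adjusted p = 0.0184), and its 2 day 0 values were far apart. Fgf4, the FGF that ES cells themselves make, had 4709 and 2867, against 6730.3 and 6164 and was not called (log2 fold change -0.81 ± 0.36, adjusted p = 0.147). The feedback inhibitors did not move alike. Spry4 fell to 1994 and 1422, against 4687 and 5217 at day 0 (log2 fold change -1.55 ± 0.25, adjusted p = 0.00324). Dusp6, the ERK phosphatase, had 3169 and 2394, against 3843 and 2984 (log2 fold change -0.30 ± 0.25, adjusted p = 0.433), with overlapping libraries. Without day 2 replicate 1 the list had 3 rises and 1 fall, and without day 2 replicate 2 it had 2 of each.

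In the Nodal and Activin list, 5 of 17 tested genes were higher and 3 lower, against 10.1% and 8.22% of all tested genes, with a median of 0.34. Among ligands, Nodal had 4716 and 3877 in the day 2 EBs, against 5148 and 2657 in the day 0 ES cells (log2 fold change 0.21 ± 0.30, adjusted p = 0.653). The extracellular inhibitors Lefty1 and Lefty2 were not called by limma over all libraries. Lefty1 had 13026 and 11947, against 18444 and 2632 (log2 fold change 0.84 ± 0.85, adjusted p = 0.515), and Lefty2 had 4368 and 3455, against 6364 and 1490.0 (log2 fold change 0.34 ± 0.53, adjusted p = 0.686). In all 3 genes the day 2 libraries lay between the 2 day 0 libraries. Without day 0 replicate 1 the log2 fold changes of Lefty1 and Lefty2 were 2.24 and 1.38. Without day 0 replicate 2 the log2 fold changes turned to -0.27 for Nodal, -0.56 for Lefty1 and -0.71 for Lefty2. Fst (follistatin), which binds and blocks activin, rose to 1316 and 1691, against 73.5 and 141 at day 0 (log2 fold change 3.86 ± 0.28, adjusted p = 0.000196). Inhbb, whose product forms activin B, is the fall given above. The calls of Fst and Inhbb held under every alternative. The list had 5 falls without day 0 replicate 2, and 1 rise without either day 2 library.

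In the BMP list, 1 of 16 tested genes was higher and 2 lower, with a median of -0.49, shares that were near those of all tested genes (10.1% and 8.22%). The ligand Bmp4 had 241 and 205 at day 2, against 752 and 1361 at day 0 (log2 fold change -2.18 ± 0.53, adjusted p = 0.0207), a call lost without either day 2 library. Bmp2 had 6.85 and 5.33, against 36.2 and 28.5 (log2 fold change -2.23 ± 0.42, adjusted p = 0.00713). Msx1, a homeobox target of BMP, had 87.1 and 74.7, against 17.6 and 10.7 (log2 fold change 2.47 ± 0.55, adjusted p = 0.0138). The groups did not overlap for these 3 genes, and none of the 3 calls held under every alternative. In this list 8 members were lower when day 0 replicate 2 was left out.

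Of 17 tested Wnt ligands, 3 were higher (Wnt8a, Wnt3 and Wnt9b) and 5 lower (Wnt4, Wnt5a, Wnt6, Wnt7a and Wnt7b), with a median of -0.19. Over all tested genes 10.1% were higher and 8.22% lower. Wnt7b had 53.8 and 48.9 in the day 2 EBs, against 623 and 418 in the day 0 ES cells (log2 fold change -3.29 ± 0.62, adjusted p = 0.00683). Wnt7a had 14.7 and 9.78, against 223 and 65.3 (log2 fold change -3.23 ± 0.60, adjusted p = 0.00655). Wnt3, the ligand required for the primitive streak in the mouse, had 269 and 276, against 177 and 71.2 (log2 fold change 1.27 ± 0.36, adjusted p = 0.0378). Its libraries did not overlap, but the call was lost without day 0 replicate 2, without either day 2 library and under 5 other alternatives. Of these 8 calls, that of Wnt8a was the 1 that held under every alternative. Leaving out day 0 replicate 1 left 2 ligands lower, and without day 2 replicates 1 and 2 in turn, 2 and 0 were lower and 1 was higher.

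Targets of β-catenin moved both ways: 3 of 16 were higher and 3 lower, against 10.1% and 8.22% of all tested genes, with a median of -0.01. Axin2, the feedback inhibitor used as a readout of Wnt activity, had 1573 and 1644 at day 2, against 913 and 908 at day 0 (log2 fold change 0.82 ± 0.21, adjusted p = 0.0253). Tcf7, a nuclear partner of β-catenin, had 6223 and 6430.2, against 3124 and 2344 (log2 fold change 1.22 ± 0.17, adjusted p = 0.00204). Both were higher at day 2 in both libraries. Sp5, a zinc finger target, had 128 and 192, against 1309 and 438 (log2 fold change -2.26 ± 0.48, adjusted p = 0.0111). Notum, the secreted enzyme that inactivates Wnt ligands, had 146 and 98.7, against 1227 and 2586 (log2 fold change -3.88 ± 0.48, adjusted p = 0.00125). The calls of Tcf7 and Notum held under every alternative, and those of Axin2 and Sp5 were lost with days 0 and 2 alone and with a day 2 library left out. The list had 5 rises and 5 falls without day 0 replicate 1, 5 and 3 without replicate 2, and 1 and 3 without day 2 replicate 2.

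Streak genes were not silent at day 2. Of 24 tested, 7 were higher (Eomes, Fgf8, Foxa2, Mixl1, Pdgfra, Wnt3 and Dll1) and 1, Cdx1, was lower, with a median of 0.43. Over all tested genes 10.1% were higher and 8.22% lower. Eomes, the T-box factor of the streak, had 1625 and 1887 in the day 2 EBs, against 424 and 145 in the day 0 ES cells (log2 fold change 2.82 ± 0.39, adjusted p = 0.00193). Mixl1, a homeobox factor of the streak, had 52.8 and 56.0, against 14.3 and 20.2 (log2 fold change 1.62 ± 0.31, adjusted p = 0.00713). Foxa2, a forkhead factor of anterior streak and endoderm, had 99.8 and 112, against 14.3 and 27.3 (log2 fold change 2.36 ± 0.47, adjusted p = 0.00856). These were low values beside those of later days: at day 4 Eomes had 15236 and 14426, Mixl1 had 6108 and 6657 and Foxa2 had 1126 and 1296. T (Brachyury), the T-box factor of nascent mesoderm, had 123 and 236 at day 2, against 98.8 and 55.8 at day 0 and was not called (log2 fold change 1.19 ± 0.40, adjusted p = 0.0665); it reached 21465 and 16448 at day 4. Cdx1, a caudal homeobox gene, had 11.7 and 15.1 at day 2, against 104 and 99.7 at day 0 (log2 fold change -2.85 ± 0.40, adjusted p = 0.00209).

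Of the 7 rises, that of Eomes alone held under every alternative, and with days 0 and 2 alone the count was 1. The count was 9 without day 0 replicate 1, 7 without replicate 2, and 2 and 1 without day 2 replicates 1 and 2 in turn. Cer1, Msgn1 and Mesp1, which mark anterior endoderm and mesoderm, had values under 5 in every library of day 2 and of day 0 (named after their values were seen). T, not called by limma over all libraries, was called higher by DESeq2 (log2 fold change 1.22, adjusted p = 0.0173). By limma without day 0 replicate 1 its log2 fold change was 1.60.

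**Figure D3:**
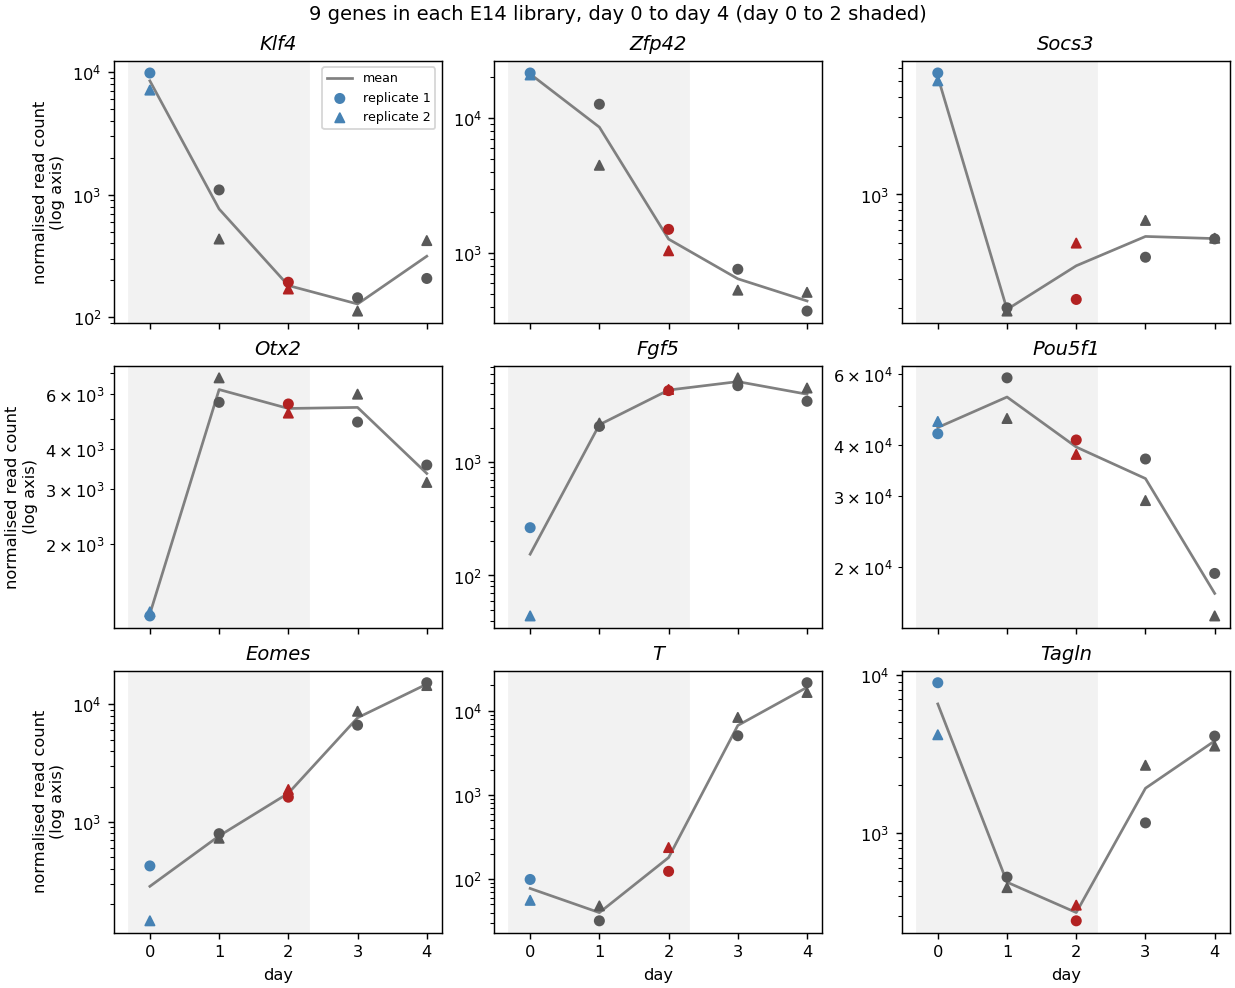
Normalised read count on a log axis against day for 9 genes, with circles for replicate 1, triangles for replicate 2, a line through the means, red for day 2, blue for day 0 and grey for the other days. Klf4 and Zfp42 fell over both days, Socs3 and Otx2 changed on the first day, Fgf5 rose over both, Pou5f1 fell after day 2, Eomes rose on each day, T rose after day 2, and Tagln fell and was higher again at day 4.

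Hox genes of the 3' end of their clusters, which are the first to come on in the embryo, were already higher. Of 11 tested, 5 were higher (Hoxb1, Hoxb2, Hoxb3, Hoxb4 and Hoxd1) and the others were not called, with a median of 2.38. Hoxb1 had 177 and 162 in the day 2 EBs, against 3.29 and 17.8 in the day 0 ES cells (log2 fold change 4.24 ± 0.57, adjusted p = 0.0018). Hoxd1 had 135 and 104, against 6.59 and 13.1 (log2 fold change 3.53 ± 0.47, adjusted p = 0.00172). Hoxb3 had 88.1 and 94.2, against 8.78 and 8.31 (log2 fold change 3.27 ± 0.41, adjusted p = 0.00134). All 3 had few reads at day 0 and several times as many at day 2. Neighbouring genes of a Hox cluster have overlapping transcripts, and the kit does not mark strand, so their reads may be shared. Of the 5 calls 4 held under every alternative, with that of Hoxb4 lost, and without day 0 replicate 2 there were also 2 falls. With a library left out the filter kept 15 of the Hox genes in place of 11, so these counts are not over the same members, and the median was 1.52 to 1.91.

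In the Notch list, 7 of 15 tested genes were higher and 2 lower, against 10.1% and 8.22% of all tested genes, with a median of 0.61. The ligand Dll3 had 594 and 642 at day 2, against 233 and 192 at day 0 (log2 fold change 1.54 ± 0.23, adjusted p = 0.00242). The other 6 rises were those of the receptors Notch2 and Notch3, the ligands Dll1 and Dll4, and the targets Hey1 and Nrarp. Rbpj, the DNA-binding partner of Notch, fell to 2026 and 1972, against 7094 and 6184 at day 0 (log2 fold change -1.73 ± 0.23, adjusted p = 0.00172). Notch4 fell to 159.5 and 160.0, against 880.2 and 940.3 (log2 fold change -2.50 ± 0.38, adjusted p = 0.00258). Receptor, ligand and target genes thus rose beside a fall of the common DNA-binding factor. The call of Dll3 was the 1 rise that held under every alternative, both falls held, and the count of rises was 3 and 1 without day 2 replicates 1 and 2 in turn and 1 with days 0 and 2 alone. There were 4 falls without day 0 replicate 2.

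Markers of other cell types that such cultures can hold did not rise as lists. Among neuroectoderm genes, 3 of 16 were higher (Zic1, Six3 and Lhx2) and 3 lower (Pax6, Tubb3 and Sox21), with a median of 0.21. Over all tested genes 10.1% were higher and 8.22% lower. Sox1, the earliest neural SoxB1 gene, had 24.5 and 26.7 at day 2, against 54.9 and 135 at day 0 and was not called (log2 fold change -1.72 ± 1.09, adjusted p = 0.297). Sox21 had 34.3 and 23.1, against 1760.5 and 382 (log2 fold change -4.82 ± 0.66, adjusted p = 0.00193). Tubb3, a neuronal tubulin, had 990.4 and 948, against 4779.9 and 4099.6 (log2 fold change -2.19 ± 0.32, adjusted p = 0.00221). Sox21 and Tubb3 were lower in both day 2 libraries than in either day 0 library. Without day 2 replicates 1 and 2 in turn the rises numbered 1 and 0.

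Of 16 visceral and parietal endoderm genes 1 was higher (Dab2) and 3 were lower (Col4a2, Sparc and Sox7), with a median of -0.25. Here and for the trophoblast genes below, the shares over all tested genes were 10.1% higher and 8.22% lower. The summed values of the endoderm list were 23771 and 28449 at day 2, against 46708 and 26159 at day 0, so the groups overlapped. Of 9 trophoblast genes 1 was higher (Ascl2) and 3 were lower, with a median of -1.88. Tfap2c, an AP-2 factor of trophoblast that naive and germ cells also use, had 241 and 323 at day 2, against 3850.3 and 2022 at day 0 (log2 fold change -3.32 ± 0.31, adjusted p = 0.00035). The keratin genes Krt8 and Krt18 were the other falls. Krt8 had 542 and 605, against 13918 and 4261 (log2 fold change -3.75 ± 0.49, adjusted p = 0.00163), with day 0 replicate 1 more than 2-fold above replicate 2. The fall of Krt18, that of Col4a2, Sparc and Sox7, and the rises of Dab2 and Ascl2 were each lost without at least 1 day 2 library. Among trophoblast genes 5 were lower when day 0 replicate 2 was left out.

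The list of feeder fibroblast genes was split. Of 10 tested, 5 were lower (Tagln, Acta2, Fn1, Vim and Postn) and 2 higher (Dcn and Thy1), with a median of -1.38. Tagln, an actin-binding protein of smooth muscle, had 279 and 350.2 in the day 2 EBs, against 8891 and 4172 in the day 0 ES cells (log2 fold change -4.28 ± 0.41, adjusted p = 0.000382). Acta2, smooth muscle actin, had 154 and 56.9, against 2894 and 1465 (log2 fold change -4.44 ± 0.54, adjusted p = 0.00116). Dcn, the matrix proteoglycan decorin and a defining fibroblast gene, went the other way, with 41.1 and 31.1, against 2.20 and 1.19 (log2 fold change 3.80 ± 0.49, adjusted p = 0.00147). Thy1, a surface glycoprotein of fibroblasts among other cells, chosen after its values were seen, had 649 and 717, against 237 and 185 (log2 fold change 1.70 ± 0.24, adjusted p = 0.0022). Both rises and the falls of Tagln and Acta2 held under every alternative, while those of Fn1, Vim and Postn were lost under at least 2. Dcn was near 0 in both day 0 libraries, where Tagln and Acta2 were high, and 1 of the 12 listed genes was at 0 in all 4 libraries. Without either day 2 library 2 falls were left. The summed values of the list were 18828 and 17557 at day 2, against 48528 and 45266 at day 0. The ES cells were kept on gelatin, and the part of other cells in these falls was not tested.

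Other genes among the 10 largest falls were in none of these marker lists. Acta1, skeletal muscle actin, had 13.7 and 20.4 at day 2, against 1245 and 775 at day 0 (log2 fold change -5.79 ± 0.52, adjusted p = 0.00035). Synpo2l, an actin-bundling protein of the sarcomere, had 4.89 and 6.22, against 406 and 393 (log2 fold change -5.94 ± 0.49, adjusted p = 0.000205). Ahnak, a giant scaffold protein beneath the plasma membrane, had 158 and 201, against 7562 and 5182 (log2 fold change -5.13 ± 0.48, adjusted p = 0.000367). Both day 0 libraries were far above day 2 in each of these genes. Thbs1 (thrombospondin 1), a secreted matrix protein, had 146 and 154, against 6079 and 3279 (log2 fold change -4.89 ± 0.60, adjusted p = 0.00116). Anxa1, a membrane-binding annexin, had 46.0 and 16.9, against 1363 and 1083 (log2 fold change -5.39 ± 0.64, adjusted p = 0.00101). Several of these genes were high again later: at day 4 Tagln had 4094 and 3539.8, Krt8 had 9084 and 8963, Ahnak had 2297 and 2805 and Thbs1 had 1108 and 1514.

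The Acta1 promoter is shown because Acta1 was among the 10 largest falls and CArG boxes, the sites of serum response factor, are known from actin genes. It runs from 250 bases before to 50 after the start site, chr8:123894726-123895025 on the minus strand (RefSeq, GRCm38.p6). Capitals mark its 1 exact match to the CArG box, CC and GG around a run of A or T, searched on both strands. Looser matches were not searched for.
Acta1: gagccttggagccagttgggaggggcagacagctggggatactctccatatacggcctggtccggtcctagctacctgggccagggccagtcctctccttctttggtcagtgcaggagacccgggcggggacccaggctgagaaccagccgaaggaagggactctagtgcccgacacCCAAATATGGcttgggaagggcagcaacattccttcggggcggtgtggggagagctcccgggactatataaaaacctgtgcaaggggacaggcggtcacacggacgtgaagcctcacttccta
The box ends 63 bases before the start site. Of the 10 genes with the largest falls, 9 had a promoter in the table, 11 promoters in all, and that of Acta1 was the 1 that held a CArG box, while 1.63% of all promoters did. The letters say nothing of whether the factor was bound.

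Extracellular matrix and integrin genes were lower too, with 7 of 16 called, all lower, and a median of -0.61. Lama1, the laminin chain of the first basement membrane, had 405 and 409.8 at day 2, against 1937 and 2670.1 at day 0 (log2 fold change -2.48 ± 0.27, adjusted p = 0.00068). Nid1, which links laminin to collagen IV, had 717 and 720.0, against 4216 and 5124 (log2 fold change -2.69 ± 0.31, adjusted p = 0.000928). Itga5, the fibronectin-binding integrin chain, had 1391 and 1319, against 3723 and 4868 (log2 fold change -1.65 ± 0.28, adjusted p = 0.00439). Replicates of each day were close together for these genes, and the 3 calls held under every alternative. The count of falls was 10 without day 0 replicate 1, 7 without replicate 2, when 3 genes were also higher, and 3 and 4 without day 2 replicates 1 and 2 in turn. In the cadherin and EMT list 2 of 17 were higher and 4 lower, against 10.1% and 8.22% of all tested genes. Zeb1, a repressor of E-cadherin, fell to 44.0 and 48.9, against 306 and 401 at day 0 (log2 fold change -2.89 ± 0.42, adjusted p = 0.00221). This fall held under every alternative, while without either day 2 library it was the 1 call left in the list, and without either day 0 library 4 genes were higher.

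**Figure D4:**
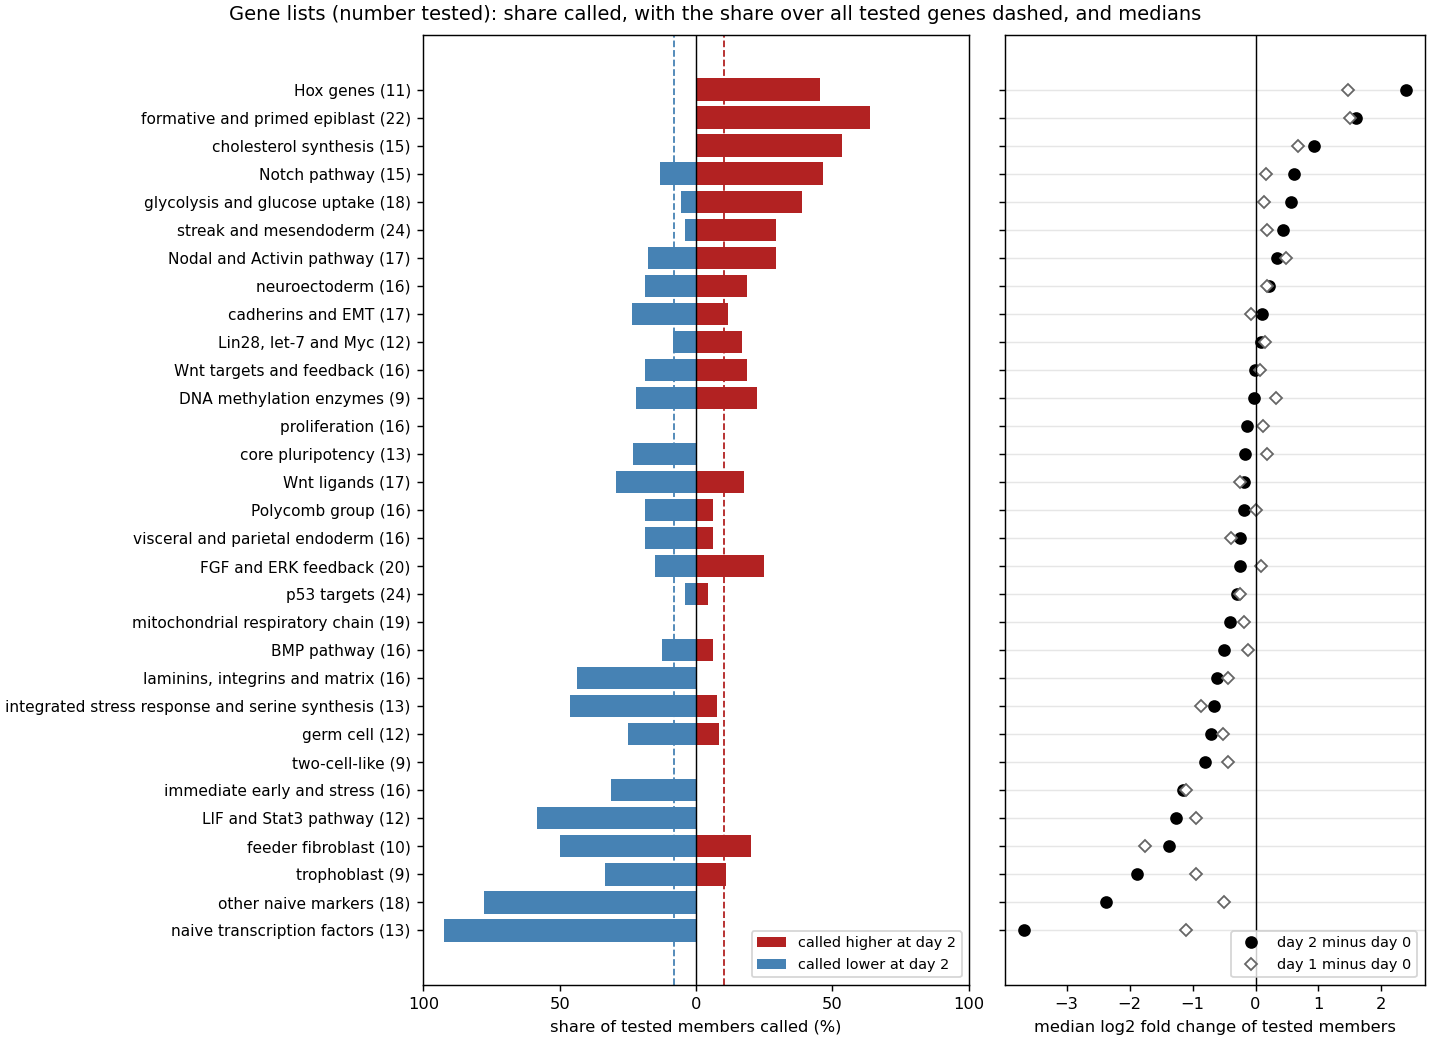
Left, the share of tested members of 31 gene lists called higher (red, to the right) or lower (blue, to the left) at day 2, with the shares over all tested genes, 10.1% and 8.22%, as dashed lines. Right, the median log2 fold change of the tested members at day 2 against day 0 (filled) and at day 1 against day 0 (open); the naive lists lie at the bottom, and Hox and formative genes at the top.

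Genes of glycolysis were partly higher at day 2. Of 18 tested, 7 were higher and 1, Pfkp, was lower, with a median of 0.56. Ldha, which makes lactate, had 89083 and 99481 in the day 2 EBs, against 26407 and 41969 in the day 0 ES cells (log2 fold change 1.50 ± 0.24, adjusted p = 0.00305). Pfkl, a phosphofructokinase chain, had 32626 and 36528, against 11548 and 15121 (log2 fold change 1.39 ± 0.19, adjusted p = 0.00184). Tpi1, triosephosphate isomerase, had 30617 and 36694, against 13675 and 18674 (log2 fold change 1.07 ± 0.19, adjusted p = 0.00494). The groups did not overlap for the 3 genes. The call of Pfkl alone held under every alternative, and with days 0 and 2 alone 1 rise was left, against 2 without day 2 replicate 2. Of 19 respiratory chain genes, 0 were called by limma (5 at an unadjusted p under 0.05, 1 by edgeR and 3 by DESeq2), with a median of -0.41. Their median was -0.69 without day 0 replicate 2 and -0.11 without replicate 1. Cox5a, a subunit of cytochrome oxidase, had 5167 and 5238 at day 2, against 11819 and 6595 at day 0 (log2 fold change -0.76 ± 0.24, adjusted p = 0.0544).

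Cholesterol synthesis genes were higher, with 8 of 15 called, all higher, and a median of 0.93. Lss, lanosterol synthase, had 5243 and 6061 at day 2, against 2202 and 1942 at day 0 (log2 fold change 1.45 ± 0.21, adjusted p = 0.00221). Dhcr7, which catalyses the last step of the pathway, had 3768 and 4138, against 1904 and 1453 (log2 fold change 1.25 ± 0.24, adjusted p = 0.00761). Both were higher in both day 2 libraries than in either day 0 library. The call of Lss alone held under every alternative. The count was 13 without day 0 replicate 1, 8 without replicate 2, 4 and 1 without day 2 replicates 1 and 2 in turn, and 2 with days 0 and 2 alone. Hmgcs1 is listed at 0 in every library and could not be tested.

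Genes of the integrated stress response and serine synthesis were partly lower, 6 of 13 with 1 higher and a median of -0.66. Asns, asparagine synthetase, had 3742 and 4216 at day 2, against 21433 and 12227 at day 0 (log2 fold change -2.03 ± 0.27, adjusted p = 0.00163). Psat1, of serine synthesis, had 8675 and 7172, against 18094 and 17968 (log2 fold change -1.19 ± 0.16, adjusted p = 0.00161). Cth, which makes cysteine, had 892 and 974, against 3611 and 4481 (log2 fold change -2.11 ± 0.25, adjusted p = 0.00109). These 3 falls held under every alternative. The count was 4 and 3 without day 2 replicates 1 and 2 in turn, and 3 with days 0 and 2 alone. Of 16 proliferation genes 0 were called by limma (3 at an unadjusted p under 0.05, 0 by edgeR and 1 by DESeq2), with a median of -0.13. The gene of the mitotic kinase Cdk1 had 6587 and 6051 at day 2, against 11856 and 8714 at day 0 (log2 fold change -0.69 ± 0.22, adjusted p = 0.0542).

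Few targets of p53 were called, and the median of the list rested on the day 0 libraries. Of 24 tested, 1 was higher (Sesn1) and 1 lower (Perp), against 10.1% and 8.22% of all tested genes, with a median of -0.29. Their median was 0.27 without day 0 replicate 1 and -0.90 without day 0 replicate 2. Cdkn1a had 1756 and 1865 at day 2, against 9923 and 1272 at day 0 (log2 fold change -0.97 ± 0.70, adjusted p = 0.356). Mdm2, the ubiquitin ligase that removes p53, had 4333 and 4595, against 10751 and 4282 (log2 fold change -0.60 ± 0.33, adjusted p = 0.23). For Cdkn1a and Mdm2 the day 2 libraries lay between the 2 day 0 libraries, and without day 0 replicate 1 the log2 fold changes were 0.51 for Cdkn1a and 0.0592 for Mdm2. Without day 0 replicate 2 the log2 fold changes were -2.45 for Cdkn1a and -1.27 for Mdm2. Sesn1, a sestrin, had 949 and 1040.0, against 331 and 406 (log2 fold change 1.43 ± 0.24, adjusted p = 0.00374). Perp, a membrane protein of desmosomes, had 496 and 621, against 2055 and 1337 (log2 fold change -1.58 ± 0.27, adjusted p = 0.00458). Trp53 itself had 10656 and 9261, against 13030.3 and 15250.1 (log2 fold change -0.50 ± 0.18, adjusted p = 0.0793).

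The median of the immediate early genes, which respond within minutes to serum and handling, also rested on the day 0 libraries. Of 16, 5 were called, all lower, with a median of -1.16, against 8.22% of all tested genes called lower. In the limma fit with days 0 and 2 alone 0 were called lower. The median was -2.14 without day 0 replicate 2 and -0.34 without replicate 1. It was -1.16 and -1.37 without day 2 replicates 1 and 2 in turn. Junb had 326 and 514 at day 2, against 5216 and 1583 at day 0 (log2 fold change -2.81 ± 0.51, adjusted p = 0.00593). Fos had 90.0 and 162, against 5859.9 and 144 and was not called by limma (log2 fold change -2.92 ± 1.26, adjusted p = 0.132). It was called lower by edgeR (-4.56, adjusted p = 0.0297) and by DESeq2 (-4.58, adjusted p = 0.00407). By limma without day 0 replicate 2 its log2 fold change was -5.59. The high day 0 value of Fos belonged to replicate 1 alone. The part of handling in these values was not tested.

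Germ cell genes fell in 3 cases of 12 (Stra8, Kit and Tex19.1) and rose in 1 (Tdrd1), with a median of -0.71. Over all tested genes 8.22% fell and 10.1% rose. Stra8, the retinoic acid target of germ cells entering meiosis, had 47.0 and 62.2 at day 2, against 937 and 277 at day 0 (log2 fold change -3.21 ± 0.59, adjusted p = 0.00623). None of these 4 calls held under every alternative. The falls numbered 5 when day 0 replicate 2 was left out. Of 9 genes of the 2-cell-like state 0 were called by limma, edgeR or DESeq2 (1 at an unadjusted p under 0.05), with a median of -0.80. Among Polycomb genes 1 of 16 was higher (Cbx2) and 3 were lower (Eed, Mtf2 and Rnf2), against 10.1% and 8.22% of all tested genes. Eed, the core subunit of PRC2 that reads methylated histone H3, had 3997 and 4178, against 8360.1 and 11337 (log2 fold change -1.25 ± 0.19, adjusted p = 0.00251). The fall of Eed held under every alternative, and the calls of Cbx2, Mtf2 and Rnf2 did not. Mycl1 and Mycn, of the Myc family, went opposite ways. Mycl1 rose to 3269 and 2971, against 563 and 413 at day 0 (log2 fold change 2.69 ± 0.20, adjusted p = 0.000196), while Mycn had 7147 and 5512, against 11349 and 11938 (log2 fold change -0.89 ± 0.19, adjusted p = 0.0124). The call of Mycl1 held under every alternative, and that of Mycn was lost without day 2 replicate 2 and with days 0 and 2 alone.

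The table also lists 621 microRNA genes, of which 39 had enough reads to test; 6 were higher and 1, Mir1199, was lower, against 10.1% and 8.22% of all tested genes. These are reads over hairpin genes in poly-A-selected RNA and measure the primary transcript, not the mature microRNA. The 6 were chosen after their values were seen: Mir302a, Mir302b, Mir302c, Mir363, Mir92-2 and Mir670. The miR-302 cluster is the leading microRNA cluster of primed pluripotent cells, and miR-363 and the miR-92a copy of Mir92-2 belong to a cluster on the X chromosome. Mature sequences of both clusters, and of miR-290a of naive cells, are shown 5' to 3' with the seed, bases 2 to 8, in capitals (RefSeq, GRCm38.p6).
mmu-miR-302b-3p: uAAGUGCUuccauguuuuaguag
mmu-miR-302d-3p: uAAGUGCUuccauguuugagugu
mmu-miR-302c-3p: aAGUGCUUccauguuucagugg
mmu-miR-290a-3p: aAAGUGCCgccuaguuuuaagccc
mmu-miR-367-3p: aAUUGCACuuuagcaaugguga
mmu-miR-363-3p: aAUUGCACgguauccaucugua
mmu-miR-92a-3p: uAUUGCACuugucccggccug
miR-302b and miR-302d share 1 seed, and miR-302c as listed starts 1 base later, which shifts its seed by a base. The seed of miR-290a differs from that of miR-302b and miR-302d in its last base alone. Other microRNAs of its cluster are not shown, so the seeds of the clusters cannot be contrasted from it. miR-367 of the miR-302 cluster shares its seed with miR-363 and miR-92a of the other cluster.

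Mir363 had 86 and 197 reads in the day 2 EBs, against 12 and 17 in the day 0 ES cells (log2 fold change 2.82, adjusted p = 0.00251). Mir92-2 had 17 and 36 reads at day 2, against 5 and 2 at day 0 (log2 fold change 2.37, adjusted p = 0.012). Mir302b had 21 and 24 reads, against 4 and 0 (log2 fold change 3.24, adjusted p = 0.0141). Each of these was higher in both day 2 libraries, on few reads. Mir302a had 16 reads over both day 2 libraries, against 1 over both at day 0, a ratio of 13.1 after scaling with a 95% interval of 2.03 to 548. Mir670 had 57 reads at day 2, against 1 at day 0, a ratio of 46.6 with an interval of 8.03 to 1871. The exact intervals cover counting error only, and they are wide. The miR-302 genes lie inside Larp7 in RefSeq, and Larp7 had 4259 and 4301 at day 2, against 3973 and 2819.7 at day 0 (log2 fold change 0.35 ± 0.20, adjusted p = 0.24), so reads of the host cannot be told from those of the cluster. Mir290, of the cluster led by miR-290a, had 5 and 4 reads at day 2, against 17 and 8 at day 0 and was not called (adjusted p = 0.219). Of the miR-302 cluster, Mir302d (adjusted p = 0.481) and Mir367 (adjusted p = 0.0621) were tested and not called.

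The day 1 libraries placed these changes in time. Day 1 against day 0 and day 2 against day 0 share the day 0 libraries, so their values are given side by side only. The median log2 fold change of the naive transcription factors was -1.10 at day 1 and -3.68 at day 2, and that of the formative genes was 1.49 at day 1 and 1.59 at day 2. The median of the other naive markers was -0.50 at day 1 and -2.37 at day 2. Klf4 had 1093 and 434 at day 1, Zfp42 had 12667 and 4468 and Prdm14 had 690.1 and 276. Of Prdm14, replicate 1 at day 1 was within the day 0 range and replicate 2 was below it. Otx2 had 5640.4 and 6749 at day 1, Pou3f1 had 8842 and 9271 and Fgf5 had 2075 and 2219.8. Otx2 and Pou3f1 were near their day 2 values by day 1, and Fgf5 lay between its day 0 and day 2 values.

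Whether the second day's change differed from the first was tested gene by gene, and 2 genes of 15841 were called (0.0126%), with 1999 at an unadjusted p under 0.05. Socs3 had 5619.5 and 5026 at day 0, 199.9 and 191 at day 1 and 225 and 501 at day 2, so its fall came on the first day. The second change minus the first, with signs kept, was 5.54 ± 0.63 on the log2 scale (limma, adjusted p = 0.044). Otx2 had 1179.9 and 1216, 5640.4 and 6749 and 5574 and 5213 on those days, and the difference was -2.56 ± 0.29 (adjusted p = 0.044). In both genes day 2 lay no further from day 0 than day 1 did. By edgeR 0 genes were called and by DESeq2 430, so this count rests on the tool.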

How the data were processed

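RNA of E14Tg2a.IV cells (TruSeq RNA v2, which does not mark strand, RNA integrity number over 9.5 per the labels) was sequenced with paired ends. The submitters' processing notes list the build mm9 and, with no role or order, DESeq2, HTSeq 0.5.4, SAMtools 0.1.19, FastQC 0.11.3 and Bowtie2. The table the authors deposited holds a signal for 23284 genes, which is the count of reads over a factor of each library. In the files, 100% of values were whole multiples of that step within 1e-06, which gave back 20104644 to 39835808 reads per library in the 10 E14 libraries, and the factors equal DESeq2's size factors (ratio 1).

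Tests were run in R 4.3.3 with limma 3.58.1, an intensity trend, and log2(signal + 1) over all 10 libraries (5 residual and 4.98 prior degrees of freedom), after filterByExpr of edgeR, applied to recovered reads, had kept 15841 genes. Calls are at a Benjamini-Hochberg adjusted p under 0.05. Each day has 2 libraries, all days share 1 spread, and that of day 0 is larger. The 18 alternatives were edgeR 4.0.16, DESeq2 1.42.0, pseudocounts of 8 and 0.5, log2 CPM with TMM, no filter, a replicate block, the compared days alone, and each library left out.

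The comparison, the 31 gene lists and the rule for named genes were chosen with earlier results of these data known. The rule names the 10 largest rises and falls among called genes of at least 10 CPM in the higher group, the members with the smallest p in each list (at most 3), the called genes whose second day's change differed most from the first, and a fixed set of pluripotency, signalling, streak and p53 genes, 131 genes in all. Genes with Gm, Rik or LOC symbols were left out of the largest rises and falls and of the genes whose second day's change differed. Rhox5 and AF067061 had no row, and Hmgcs1 and Tdg had too few reads to test. A gene that the rule names is not reported here. Members of lists outside the rule were chosen after their values were seen. Older symbols were matched through a table of names. Promoter and microRNA sequences are RefSeq's, in GRCm38.p6. No coordinates come from the deposited table. Genes that overlap or share sequence with others may have had their reads split or dropped in the counting, the settings of which are not given in the sources used here.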

Additional observations from a re-analysis of the deposited data

Results flagged for a closer look

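The change of 2 genes differed between the first and the second day by limma's test of the difference, with Benjamini-Hochberg adjustment over all tested genes. For Socs3 the second day's change minus the first was 5.54 on the log2 scale (adjusted p = 0.044), with a log2 fold change of -4.76 over the first day and 0.78 over the second. For Otx2 the difference was -2.56 (adjusted p = 0.044), with 2.36 over the first day and -0.19 over the second. Both calls are near the threshold, and the count of such genes was 0 by edgeR, 430 by DESeq2 and 0 to 2839 with 1 library left out.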

How the results depend on the processing

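Of 131 named genes under 18 alternatives, 2230 values kept their direction and side of the threshold, 90 lost the call, 31 gained it and 7 turned direction. Of the called named genes, 71 kept call and direction under all 18 and 35 lost the call under at least 1. With 1 library left out, the log2 fold change ran from -0.47 to 2.15 for Lef1, -2.45 to 0.51 for Cdkn1a, -1.27 to 0.0592 for Mdm2, -0.27 to 0.69 for Nodal, -0.56 to 2.24 for Lefty1 and -0.71 to 1.38 for Lefty2, where both ends came from leaving out 1 of the day 0 libraries. DESeq2 gave -0.0065 for Lefty2. With days 0 and 2 alone, 414 genes were higher and 394 lower (413 and 392 by more than 2-fold), 0 differed between the 2 steps, and the counts were 9 for other naive markers, 9 for formative, 1 for streak, 0 for immediate early, 3 for stress response, 1 for glycolysis, 2 for cholesterol and 1 for Notch genes. Leaving out 1 library gave 353 to 3189 genes higher, 328 to 3093 lower, 349 to 2217 and 324 to 1755 by more than 2-fold, and 0 to 2839 between the steps. Over the same libraries the counts were 11 to 13 for naive factors, 8 to 16 for other naive markers, 10 to 16 for formative, 5 to 7 for LIF, 1 to 9 for streak, 0 to 15 for immediate early, 3 to 8 for stress response, 4 to 6 for Hox, 2 to 8 for glycolysis, 1 to 13 for cholesterol, 3 to 10 for matrix and 1 to 7 for Notch genes. The lone library of a day is then assumed to vary like the other days. DESeq2 called 10 immediate early genes lower. Genes differing between the steps were 0 by edgeR, 430 by DESeq2, 0 without the filter and 0 with the replicate block. The replicate numbers were not taken as pairs: deviations of same-numbered libraries correlated at -0.19 to 0.351, and the 3 of 10 pairs over 0.1 were those among days 1, 2 and 3, with none that includes day 0. With the replicate block 1654 genes were higher and 1378 lower, and 2770 of the 2904 calls were among them. Leaving out a library changes the spread that all days share as well as the means. The part of each in these shifts was not tested. Genes of few reads, microRNA rows among them, are limited by depth.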
